A study of Mus musculus with 6 samples.

Results

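The genes described here are 8 transcription factors of macrophages, namely Maf of the large Maf family, Mitf, Tfec, Tfeb and Tfe3 of the MiT/TFE family, the related repressors Bhlhe40 and Bhlhe41, and the ETS factor Spic. They were chosen by name, and all 8 were found among the 25751 genes of a table of raw RNA-seq counts and passed the filter on low counts, as 14626 genes did. The table holds 3 libraries of myeloid primary cells from wild-type mice that received trimethylamine N-oxide (TMAO), a metabolite that the liver makes from trimethylamine released by gut bacteria, and 3 control libraries of myeloid cells without TMAO, all labelled 24 h. The labels give no dose, strain, sex or age, and no separate animals or cultures are named for the libraries, so that p-values here cover the spread among libraries, which may be technical. The treated samples carry T-BMDM in their descriptions and the controls do not, so a difference in the source of the cells and the treatment cannot be told apart.

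These factors act at different layers of macrophage gene control. MAF is a leucine zipper factor that restrains division in mature mouse macrophages and is known as an activator of Il10. MITF, TFEB, TFE3 and TFEC bind E-boxes as dimers with each other, and MITF, TFEB and TFE3 drive genes of lysosomes and autophagy. MITF, TFEB and TFE3 are kept in the cytoplasm by mTORC1 at the lysosome, so that much of their control lies in protein location, which a count of transcripts does not show. BHLHE40 and BHLHE41 repress genes through E-boxes, among them clock genes, and in mouse macrophages BHLHE40 is known to repress Il10 and Maf. SPIC is known for red pulp macrophages of the mouse spleen, where haem relieves its gene of repression by BACH1.

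With TMAO, 5 of the 8 factors rose (Tfec, Spic, Bhlhe40, Bhlhe41 and Tfe3) and 3 fell (Maf, Mitf and Tfeb) by edgeR's quasi-likelihood test at an adjusted p under 0.05. The calls have to be read against a transcriptome in which 65.7% of all genes tested were called, 33.0% higher and 32.7% lower. The CPM values (counts divided by the library total, scaled by TMM factors) of the groups did not overlap for any of the 8 factors, and they did not overlap for 71.0% of all genes tested. The median size of the log2 fold change, without its sign, was 1.11 for the factors and 0.66 for all genes tested. The signed medians were 0.70 for the factors and 0.0050 for all genes tested. Against a fold of 1.5, the test called 35.4% of all genes, and among the factors it called all but Tfeb and Tfe3. The groups also differed in markers of other cells. The summed CPM of 18 neutrophil markers ran from 4567 to 5824 in TMAO libraries and from 490.9 to 537.5 in controls, and that of 10 monocyte markers ran from 1056 to 1112 in TMAO libraries and from 194.7 to 247.2 in controls. Of the neutrophil markers 15 rose and 2 fell, and of the monocyte markers 9 rose and 1 fell. The 12 macrophage markers were all detected, with summed CPM of 42980 to 52280 in TMAO libraries and 44490 to 49410 in controls, and 5 of them rose and 5 fell. Lyz2 alone, at a mean of 37360 CPM in TMAO libraries and 37020 CPM in controls, made up most of that sum, while Mertk fell 9.94-fold, Fcgr1 4.19-fold, Adgre1 3.24-fold and Cd68 1.76-fold, and Cd14 rose 7.14-fold. In these bulk libraries fewer cells of a type and less RNA per cell cannot be told apart, and the part of cell mixture in the changes below was not tested.

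**Figure D1:**
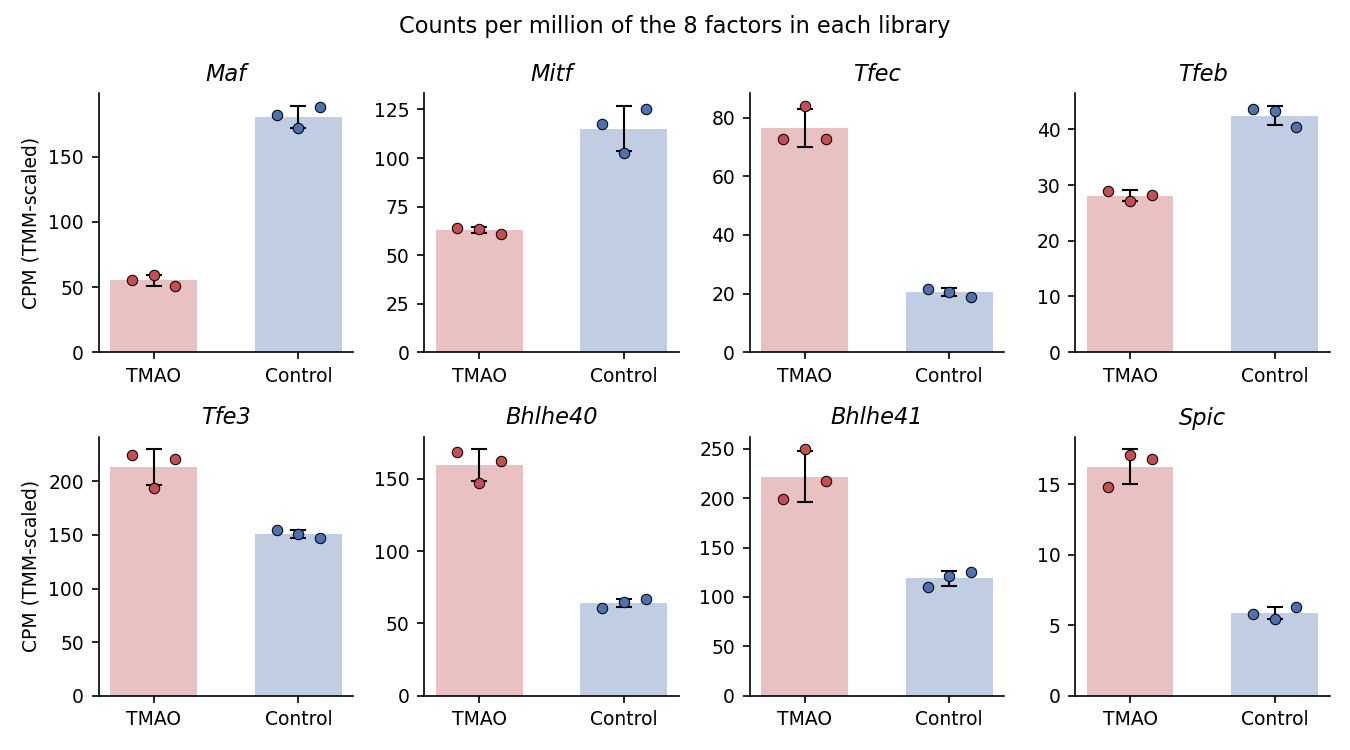
CPM scaled by TMM factors (vertical axis, from 0, with its own scale in each panel) of each factor in 3 TMAO and 3 control libraries. Points are libraries, bars are means and error bars are SD. In every panel the points of the groups are apart, as they were for 71.0% of all genes tested.

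Maf fell the most of the 8 factors. It had 55.3, 59.6 and 50.9 CPM in the TMAO libraries, against 181.9, 171.9 and 188.5 CPM in the control libraries. All TMAO values lay below 60 CPM and all control values above 170 CPM. The log2 fold change was -1.71 (SE 0.09, edgeR adjusted p = 1.82e-07), a level 3.27-fold lower with TMAO, and 764 of the 14626 genes tested had a lower log2 fold change.

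The small Maf proteins, which lack an activation domain, and their CNC partners were mostly higher. Of 10 tested genes in the list of Maf relatives and CNC factors, 6 rose and 1 fell, with a median log2 fold change of 0.73. Maff, a small Maf gene, rose 6.88-fold, to a mean of 54.2 CPM in TMAO libraries against 7.88 CPM in controls. Nfe2, a CNC factor of blood cells, averaged 20.8 ± 2.34 CPM in TMAO libraries and 2.07 ± 0.555 CPM in controls (SD, n = 3 each, as in all such values below). Nfe2 is known from megakaryocytes and erythroid cells, whose markers were also higher: 4 of 6 tested rose and 1 fell, with summed CPM of 352 to 537 in TMAO libraries and 44.4 to 66.0 in controls. Among them Pf4 rose 7.53-fold, Itga2b 10.5-fold and Ppbp 14.3-fold, the erythroid gene Hbb-bs fell 2.71-fold, and the part of such cells in the value of Nfe2 was not tested. Nfe2l2, which encodes the oxidative stress factor NRF2, rose 1.99-fold. Bach1, the CNC repressor of haem-responsive genes, was the member that fell, to 56.3 ± 6.68 CPM in TMAO libraries against 145 ± 17.6 CPM in controls.

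Genes tied to MAF in macrophages were called in both directions: 12 of 20 tested rose and 4 fell, at a median log2 fold change of 0.32. Of all genes tested, 33.0% rose and 32.7% fell. Il10, which MAF activates, had 15.3, 17.1 and 16.6 CPM in TMAO libraries, against 0.540, 0.580 and 0.436 CPM in controls, a 31.3-fold rise. Il12b, which MAF is known to repress, had 7.01, 3.99 and 6.10 CPM in TMAO libraries and 0.515, 0.677 and 0.509 CPM in controls. Both cytokine genes were thus higher in every TMAO library than in any control library. Mertk, a receptor for apoptotic cells, fell to 16.3 ± 3.67 CPM in TMAO libraries against 161.9 ± 15.8 CPM in controls. Myc and Klf4, which are held low by MAF in resting mouse macrophages and which also respond early to stimuli, rose 6.11-fold and 6.19-fold.

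The MiT/TFE family split into a pair that rose and a pair that fell. Tfec, whose expression in mice is largely confined to myeloid cells, rose the most of all 8 factors. It had 72.8, 84.1 and 72.9 CPM in the TMAO libraries, against 21.7, 20.4 and 19.0 CPM in the controls. The log2 fold change was 1.91 (SE 0.10, edgeR adjusted p = 1.70e-07), a 3.76-fold rise that 907 of the genes tested exceeded. Tfe3, a broadly expressed member that acts on lysosomal genes together with TFEB, had 225.0, 194.2 and 220.7 CPM in TMAO libraries, against 154.6, 150.9 and 147.0 CPM in controls. The second TMAO library was the lowest of its group for Tfe3 and the highest for Tfec. The log2 fold change of Tfe3 was 0.50 (SE 0.09, edgeR adjusted p = 0.000498), and the gene was not called against a fold of 1.5 (edgeR adjusted p = 0.886).

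Mitf, which is needed in mice for osteoclasts, mast cells and melanocytes, had 64.1, 63.4 and 61.0 CPM in TMAO libraries, against 117.6, 102.5 and 125.5 CPM in controls. The TMAO values were close together while the control values spread more, with an SD of 1.63 CPM and 11.7 CPM. The log2 fold change was -0.87 (SE 0.10, edgeR adjusted p = 2.08e-05). Markers of mast cells, basophils and eosinophils were higher in the same TMAO libraries (3 of 3 tested rose, with summed CPM of 19.0 to 23.4 in TMAO libraries and 0.485 to 1.24 in controls), and the melanocyte genes with a row, Pmel, Mlana and Sox10, summed to under 1 CPM in every library. Osteoclast markers were lower in sum, at 195 to 197 CPM in TMAO libraries and 347 to 373 CPM in controls, although 5 of the 8 tested rose and 3 fell, and the fall of the sum was mostly that of Atp6v0d2. The part of these cells in the values of Mitf was not tested. Tfeb, which controls lysosome number and autophagy, had 29.0, 27.1 and 28.3 CPM in TMAO libraries, against 43.7, 43.3 and 40.5 CPM in controls. Its log2 fold change was -0.60 (SE 0.09, edgeR adjusted p = 0.000174), and it was not called against a fold of 1.5 (edgeR adjusted p = 0.420). Long genes were lower and short genes higher with TMAO, at median log2 fold changes of -0.53 and 0.49 among the 2920 longest and the 2920 shortest genes tested. With this length trend removed, the log2 fold change of Mitf was -0.56 and that of Tfe3 was 0.99, and with the trend of fold changes on GC content removed that of Tfeb was -0.92. All 3 calls held under both settings.

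Compared per length, the family's summed level differed little between groups while its make-up differed in every library. Counts were divided by the length of each gene's longest annotated transcript and scaled to the same total in every library (TPM). The 4 genes summed to 182.2, 152.9 and 164.6 TPM in the TMAO libraries and to 176.3, 155.2 and 175.4 TPM in the control libraries, and these values overlapped (difference of means -2.44 TPM, exact permutation test over the 20 arrangements of 3 against 3 libraries, two-sided p = 0.9). Tfec made up 27.9% ± 2.72 of that sum in TMAO libraries and 8.41% ± 0.516 in controls (SD, n = 3 each). Tfe3 made up 41.5% ± 2.74 in TMAO libraries and 33.3% ± 1.02 in controls. Mitf made up 15.9% ± 0.400 in TMAO libraries and 32.9% ± 2.76 in controls, and Tfeb made up 14.8% ± 0.301 in TMAO libraries and 25.4% ± 1.30 in controls. Each of these 4 shares was apart between the groups (exact permutation test, two-sided p = 0.1, the smallest that 3 against 3 libraries allow). These shares rest on the transcript length used: with the union of all exons as length, Mitf made up 19.6% and 40.4% and Tfeb 9.57% and 16.3% in TMAO and control libraries, with Tfec at 26.4% and 7.92%. Which transcripts of each gene were present was not analysed here.

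**Figure D2:**
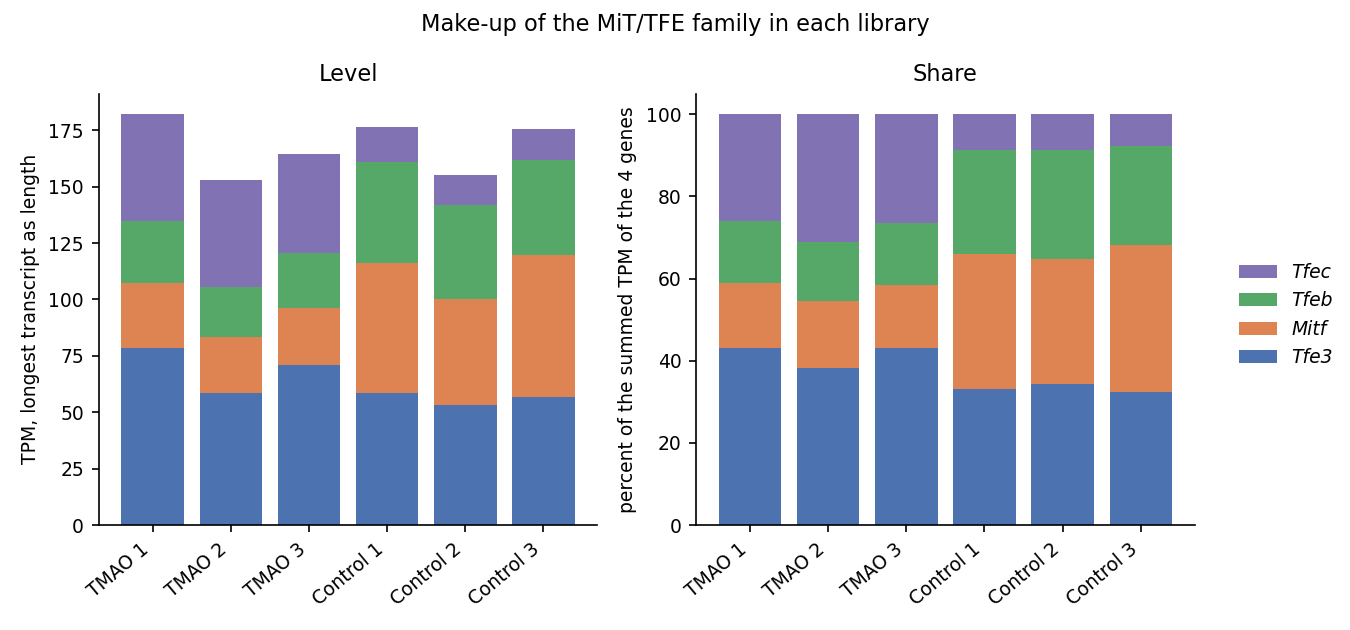
Stacked TPM of the 4 MiT/TFE genes (left, vertical axis from 0) and the percent of their sum that each gene made up (right) in each TMAO and control library. Tfec and Tfe3 take larger parts, and Mitf and Tfeb smaller parts, in all 3 TMAO libraries, while the height of the stacks overlaps between groups.

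Genes in the control of MITF, TFEB and TFE3 at the lysosome were called in both directions. Of 20 genes tested, 9 fell and 6 rose, at a median log2 fold change of -0.09. Of all genes tested, 32.7% fell and 33.0% rose. The list is not confined to genes that hold these factors at the lysosome, and Ppp3ca, Ppp3cb and Tsc2 were among those that fell. Fnip2, a partner of folliculin in activating RagC and RagD, fell to 161 ± 15.9 CPM in TMAO libraries against 430.5 ± 53.4 CPM in controls, and Fnip1 fell 1.94-fold. Rragd, the gene of the Rag GTPase RagD, fell to 10.2 ± 0.711 CPM in TMAO libraries against 23.7 ± 3.42 CPM in controls. Mtor, the kinase, fell to 29.5 ± 2.97 CPM in TMAO libraries against 57.3 ± 4.56 CPM in controls, and Rraga rose 1.63-fold. With the length trend removed the calls held at smaller log2 fold changes, of -0.30 in place of -0.96 for Mtor, -0.46 in place of -0.95 for Fnip1, -0.84 in place of -1.42 for Fnip2 and 0.39 in place of 0.71 for Rraga. Rraga was not called against a fold of 1.5 (edgeR adjusted p = 0.0889). Flcn, which encodes folliculin, was at 98.9 ± 13.5 CPM in TMAO libraries and 99.2 ± 1.43 CPM in controls and was not called.

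The CLEAR network, the lysosomal and autophagy genes named for the E-box element that MiT/TFE factors bind, also held calls in both directions. Of 41 genes tested, 13 rose and 18 fell, and the median log2 fold change was -0.08. Of all genes tested, 33.0% rose and 32.7% fell. The sharpest falls were in Atp6v0d2, a subunit of the lysosomal proton pump that MITF and TFE factors drive in osteoclasts, with 26.7 ± 0.831 CPM in TMAO libraries and 188.7 ± 13.3 CPM in controls, and in the heparan sulfatase gene Sgsh, with 12.2 ± 2.42 CPM in TMAO libraries and 87.3 ± 7.71 CPM in controls. The lysosomal membrane gene Lamp1 fell 1.47-fold and was not called against a fold of 1.5 (edgeR adjusted p = 0.586). Sqstm1, the autophagy receptor p62, rose to 5063 ± 104 CPM in TMAO libraries against 895 ± 52.0 CPM in controls. Mcoln1, the calcium channel of lysosomes, was not called, at 82.2 ± 3.71 CPM in TMAO libraries and 92.8 ± 1.06 CPM in controls, but was called lower once the length trend was taken out (log2 fold change -0.22, edgeR adjusted p = 0.0127) and with the GC trend removed (-0.20, edgeR adjusted p = 0.0369). All 11 tested genes of the list of MITF and TFE targets in osteoclasts and macrophages were called, 5 higher and 6 lower, at a median log2 fold change of -0.28. Of all genes tested, 65.7% were called. Il1rn, the interleukin-1 receptor antagonist, rose 7.12-fold, and Ctsk, cathepsin K, rose 2.06-fold, with a log2 fold change of 1.04 that was 0.68 with the length trend removed. Gpnmb, a membrane glycoprotein, fell to 9799 ± 1433 CPM in TMAO libraries against 18160 ± 134.2 CPM in controls. Tnfrsf11a, the receptor RANK, fell 2.43-fold, Nfatc1 2.17-fold and Ostm1 1.94-fold, and Acp5, the tartrate-resistant phosphatase, rose 1.24-fold. The call of Acp5 was lost once the length trend was taken out (log2 fold change -0.050, edgeR adjusted p = 0.584) and with the GC trend removed (0.11, edgeR adjusted p = 0.206).

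Both related repressors rose. Bhlhe40 had 168.6, 147.3 and 162.7 CPM in TMAO libraries, against 60.8, 65.2 and 66.6 CPM in controls, a log2 fold change of 1.31 (SE 0.09, edgeR adjusted p = 8.33e-07). Bhlhe41 had 198.8, 249.6 and 217.1 CPM in TMAO libraries, against 110.4, 121.0 and 125.5 CPM in controls, a log2 fold change of 0.90 (SE 0.10, edgeR adjusted p = 2.86e-05). In the second TMAO library Bhlhe40 was the lowest and Bhlhe41 the highest of the group. With the length trend removed, the log2 fold change of Bhlhe41 was 1.38 and that of Bhlhe40 was 1.30, so which of the pair rose more depended on that setting. Per length of the longest transcript, the log2 ratio of Bhlhe40 to Bhlhe41 was 0.74, 0.22 and 0.56 in TMAO libraries and 0.12, 0.09 and 0.06 in controls. The groups did not overlap (difference of means 0.42, exact permutation test, two-sided p = 0.1, the smallest possible), and the second TMAO library lay nearest to the controls. With the union of exons as length the difference of means was again 0.42. The control means were then 40.8 TPM for Bhlhe40 and 52.9 TPM for Bhlhe41, so the sign of the ratio in controls depended on the length used. Of the exon bases of Bhlhe41, 19.0% lie under a gene model annotated on the other strand, which had 220 counts over all libraries, and the strand setting of the counting is not given in the sources used here.

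A list of 16 clock genes, among them known E-box targets of these repressors and of CLOCK, was lower in 8 cases and higher in 5. The median log2 fold change was -0.48, and 32.7% of all genes tested fell and 33.0% rose. The list also holds Clock and Npas2, which fell, and Nfil3, which rose, so its counts are not counts of such targets alone. Dbp fell to 3.09 ± 0.345 CPM in TMAO libraries against 19.8 ± 1.16 CPM in controls, Per3 fell 4.42-fold, Per2 2.98-fold and Tef 2.92-fold. Nfil3, which opposes DBP at shared sites, rose to 35.5 ± 3.06 CPM in TMAO libraries against 7.13 ± 0.984 CPM in controls, and Nr1d1, the repressor REV-ERB alpha, rose 1.89-fold. Per1 was at 32.4 ± 6.91 CPM in TMAO libraries and 33.4 ± 2.09 CPM in controls and was not called. The time of day of sampling is not given in the labels.

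Spic, the least abundant of the factors, had 14.8, 17.1 and 16.8 CPM in TMAO libraries, against 5.82, 5.44 and 6.27 CPM in controls. The lowest TMAO value was above the highest control value, and the log2 fold change was 1.47 (SE 0.12, edgeR adjusted p = 3.67e-06), a 2.78-fold rise. Spi1, which encodes the related ETS factor PU.1, rose 1.86-fold, and Spib, a relative of B cells and plasmacytoid dendritic cells, averaged 1.97 ± 0.224 CPM in TMAO libraries and 0.262 ± 0.199 CPM in controls. Spic is also expressed in B cells. Of 8 tested B cell markers 6 rose and 1 fell, with summed CPM of 87.6 to 97.8 in TMAO libraries and 124 to 133.6 in controls. The drop of that sum came from Blnk, which macrophages also express and which fell 1.96-fold, and Cd79b was not called, at 2.50 ± 0.356 CPM in TMAO libraries and 2.71 ± 0.637 CPM in controls. Pax5, a defining factor of B cells, was at 0.387 ± 0.0736 CPM in TMAO libraries and at 0 in all controls. The part of B cell RNA in the values of Spic and Spib was not tested.

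Genes around SPIC were called in both directions. Of 13 tested genes in the list of ETS relatives and iron recycling genes, 7 rose and 2 fell, at a median log2 fold change of 0.32. Of all genes tested, 33.0% rose and 32.7% fell. The genes of the list that rose include Spi1, Spib and Treml4, which do not handle haem or iron. Of the haem and iron genes, Hmox1, Slc40a1, Fth1 and Ftl1 rose, Tfrc and Ireb2 fell, and Slc11a1, Blvrb and Cd163 were not called. Hmox1, haem oxygenase, rose to 2355 ± 68.1 CPM in TMAO libraries against 515.7 ± 26.1 CPM in controls, and Slc40a1, the iron exporter ferroportin, rose 1.61-fold but was not called against a fold of 1.5 (edgeR adjusted p = 0.136). Tfrc, the transferrin receptor, and Ireb2, an iron-regulatory RNA-binding protein, were lower 3.03-fold and 1.82-fold. With the length trend removed, the list held 4 genes called higher and 4 called lower, and the log2 fold change of Ireb2 was -0.44 in place of -0.87.

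**Figure D3:**
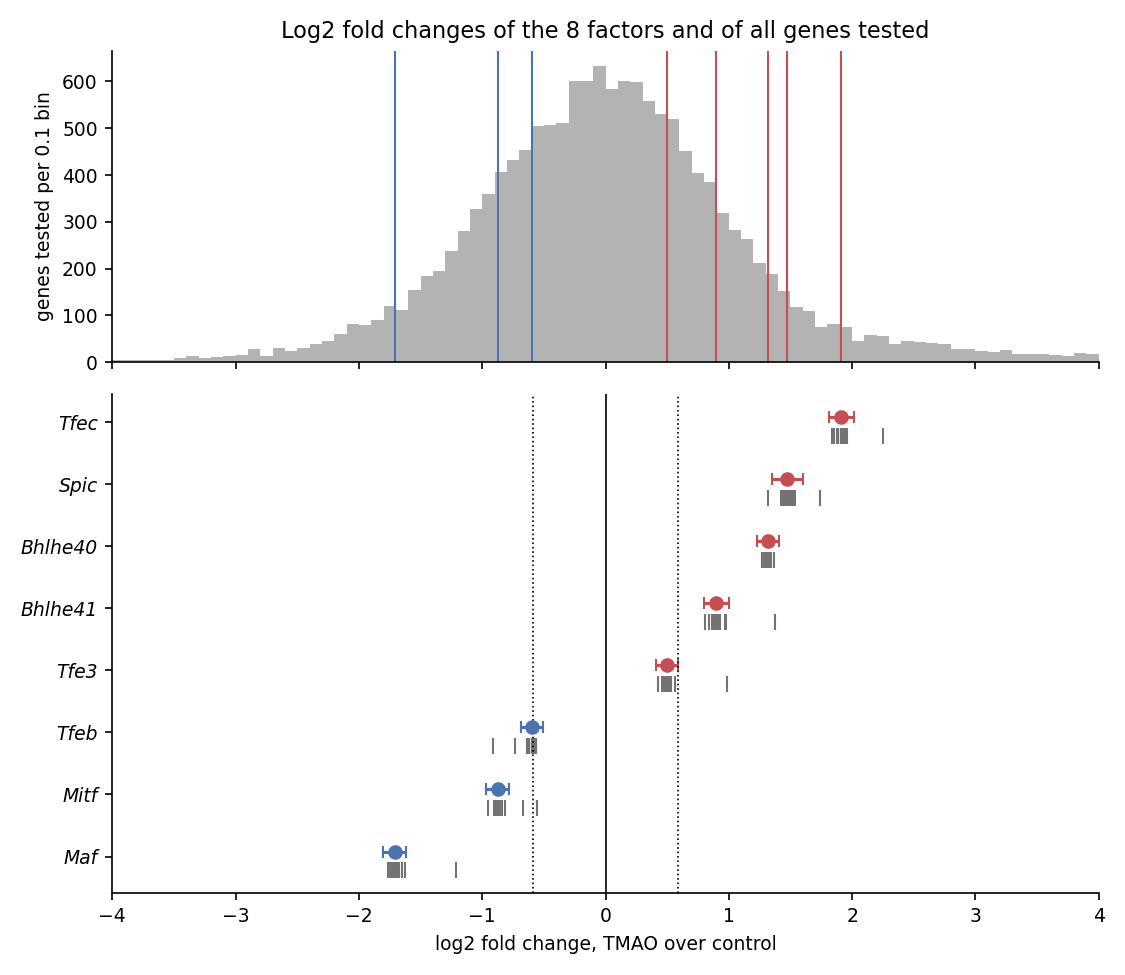
Log2 fold changes (TMAO over control, horizontal axis) of all genes tested as a histogram (above, 258 genes beyond 4 on either side left out) with the 8 factors as vertical lines, and of each factor (below) with its SE. Grey ticks are the values under 19 alternative settings and dotted lines mark a fold of 1.5. Maf and Tfec lie farthest from 0, and every tick lies on the side of its factor's main value.

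The order of the factors changed between groups. In the TMAO libraries, mean levels per length ran from Bhlhe40 (105 TPM) through Bhlhe41 (73.7 TPM), Tfe3 (69.3 TPM), Tfec (46.2 TPM), Mitf (26.4 TPM), Tfeb (24.7 TPM) and Maf (17.8 TPM) to Spic (14.5 TPM). In the control libraries they ran from Maf (67.1 TPM) through Tfe3 (56.2 TPM), Mitf (55.8 TPM), Bhlhe40 (48.6 TPM), Bhlhe41 (45.7 TPM), Tfeb (42.8 TPM) and Tfec (14.2 TPM) to Spic (6.03 TPM). Maf thus stood at the head of the order in controls and next to last with TMAO. Within the TMAO group the ranges over libraries overlapped between Bhlhe41 and Tfe3 and between Mitf and Tfeb, although Mitf lay above Tfeb in every TMAO library. Within the control group the ranges overlapped between each neighbouring pair from Tfe3 to Tfeb, and Tfec and Spic stood apart from their neighbours. In every control library, however, Mitf lay above Bhlhe40 and, with the longest transcript as length, Bhlhe40 above Bhlhe41. Maf lay above Tfe3 and above Mitf in every control library, although its control range (60.5 to 72.4 TPM) overlapped that of Mitf (47.0 to 62.8 TPM). With the union of exons as length, Bhlhe40 and Bhlhe41 had means of 90.1 and 87.0 TPM in TMAO libraries and overlapped, and Mitf at 26.9 TPM, Maf at 17.7 TPM and Tfeb at 13.2 TPM followed Tfec. In controls that length put Bhlhe41 (49.91 to 57.75 TPM) above Bhlhe40 (39.22 to 43.78 TPM). Control means were then 55.7 TPM for Mitf, 52.9 TPM for Bhlhe41 and 48.7 TPM for Tfe3. These levels, and the order of the factors, depend on which transcript length is used.

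For 6 of the 8 factors RefSeq promoter windows of GRCm38.p6 were at hand, 11 windows in all, each from 250 bases before to 50 bases after a transcript start. The windows of Tfec and Spic, the factors with the largest rises, are shown because they hold the fewest CG dinucleotides of the 11 windows. Each held 3 CGs in 300 bases, a number that 31.4% of the 32851 windows of all genes did not exceed, against a median of 7. The window of Bhlhe41 held 32, and the first windows of Mitf and Tfeb held 22 each. The other windows of Mitf held 5 and 8, those of Tfeb 20 and 6, and the windows of Tfe3 14 and 8. The 100 bases before the start are given 5′ to 3′ on the gene's strand, with each CG in capitals, for Tfec at chr6:16898442-16898541 (minus strand) and for Spic at chr10:88683024-88683123 (minus strand).
Tfec: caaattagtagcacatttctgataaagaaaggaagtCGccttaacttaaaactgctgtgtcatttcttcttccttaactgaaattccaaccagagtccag
Spic: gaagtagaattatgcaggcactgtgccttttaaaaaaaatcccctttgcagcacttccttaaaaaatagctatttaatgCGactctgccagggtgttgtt

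Motifs tied to these factors were searched on both strands of the same windows. The E-box CACGTG, which MiT/TFE and BHLHE40/41 proteins bind and whose letters are the same on both strands, was in 7.15% of all windows and, among the 6 factors, in that of Bhlhe41. The longer CLEAR core TCACGTGA, which contains the E-box, was in 0.974% of all windows and in none of the factors' windows. The letters TGCTGAC, found in MAF recognition elements, were in 4.67% of all windows and in 2 windows of Mitf. The PU box GAGGAAGT was in 3.20% of all windows and in none of the factors' windows. The matches are shown with the motif in capitals because they lie at genes that moved, 1 higher and 1 lower. A match is a description of letters and not a measured site of binding. They lie at chr6:145865541-145865600 (minus strand) for Bhlhe41 and at chr6:97806809-97806869 and chr6:97929567-97929614 (plus strand) for Mitf.
Bhlhe41: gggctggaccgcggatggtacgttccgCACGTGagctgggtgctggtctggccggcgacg
Mitf, first window: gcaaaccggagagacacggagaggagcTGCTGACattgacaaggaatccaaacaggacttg
Mitf, middle window, motif on the other strand: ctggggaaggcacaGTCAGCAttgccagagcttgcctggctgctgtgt

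Other bHLH-Zip factors share the E-box and the dimer form of the MiT/TFE family. In a list of them, 9 of 16 tested genes rose and 4 fell, and the median log2 fold change was 0.32. For comparison, 33.0% of all genes tested rose and 32.7% fell. Myc averaged 72.1 ± 4.26 CPM in TMAO libraries and 11.8 ± 1.48 CPM in controls. Of the MXD and MXI genes, whose proteins compete with MYC for MAX, Mxi1 rose 1.89-fold and Mxd3, at 1.70 ± 0.394 CPM in TMAO libraries and 0.114 ± 0.0727 CPM in controls, rose 14.4-fold, while Mxd4 fell 2.53-fold. Usf1, an E-box factor of many cell types, was at 38.9 ± 4.02 CPM in TMAO libraries and 39.8 ± 4.64 CPM in controls and was not called.

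**Figure D4:**
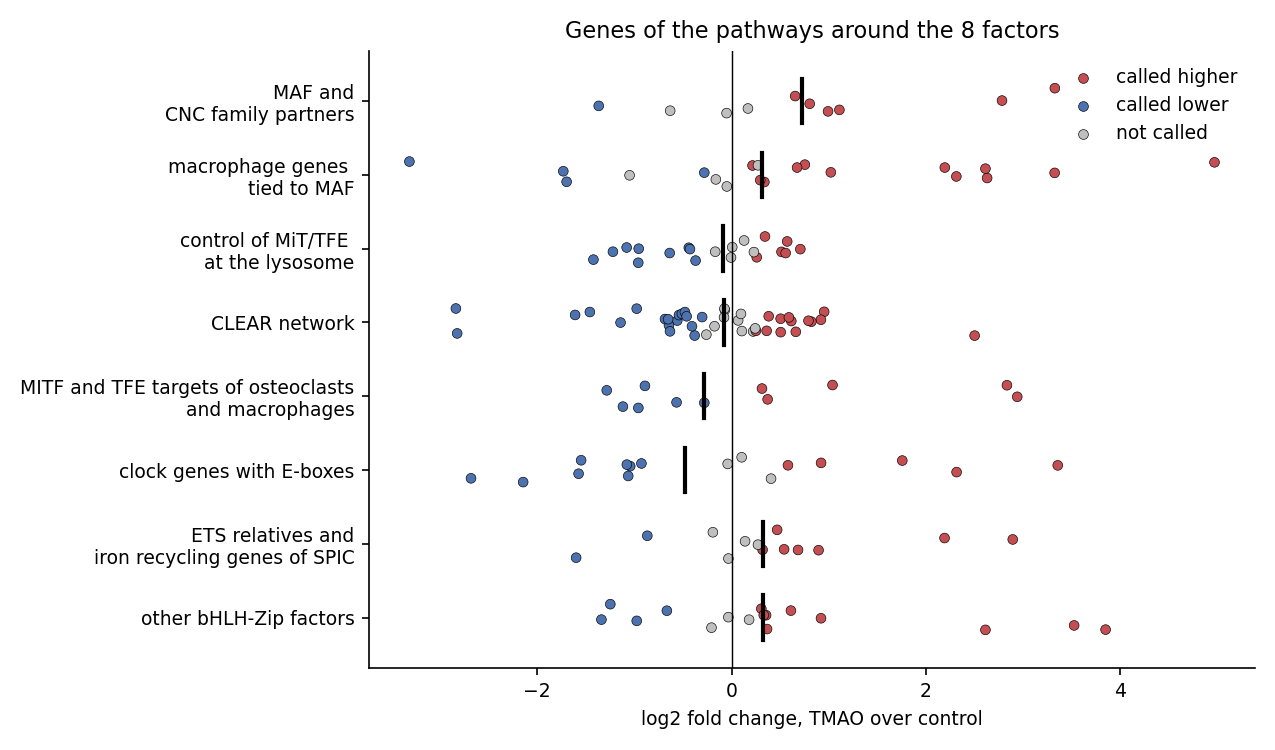
Log2 fold changes (TMAO over control, horizontal axis) of the tested genes of 8 lists around the factors, with each gene a point, coloured by its call, and the list's median a black bar. Every list holds genes called in both directions, and the list medians lie between -0.48 and 0.73. Of all genes tested, 33.0% were called higher and 32.7% lower.

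The genes whose profiles over the 6 libraries lay nearest to each factor were found by the Euclidean distance between log2 CPM values, each gene centred on its own mean. For Maf they were Mef2c and Pdk2, at distances of 0.102 and 0.103, with log2 fold changes of -1.70 and -1.70. For Mitf they were Cmtm4 and Stk4, and for Tfeb Vps9d1 and Mcm6. For Tfec they were H2-K2, a member of a family of near-identical genes whose count is uncertain, and Qtrt1. Tfe3 was nearest to Tpcn2, a channel of lysosomes, at a distance of 0.0598, followed by Tmem63b. Bhlhe40 was nearest to Tmeff1 and Itprip, Bhlhe41 to Clec4d and Pbdc1, and Spic to Tbl2 and U2af1. With 2 groups of 3 libraries, such a distance mostly reflects the difference between the groups.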

How the data were processed

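The deposited values are raw counts that the authors made for each Ensembl gene in 6 mouse RNA-seq libraries, 3 TMAO and 3 control; poly(A) selection and paired-end sequencing are stated in the labels' protocols. Per the submitters' processing notes, reads were placed on GRCm39. For the aligner, the counter and its strand setting, nothing is given in the sources used here. Totals ran from 37759007 to 41735109 counts. Of 25751 gene IDs, 25386 received symbols from GENCODE M21, whose older build, GRCm38, was used only for symbols, lengths and exon overlap. Column names equal the samples' descriptions.

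All genes were fitted together in edgeR 4.0.16 (R 4.3.3): filterByExpr with a minimum count of 10 kept 14626 genes, TMM scaled libraries, and a quasi-likelihood F test without covariates was adjusted by Benjamini-Hochberg over all genes tested, at 0.05. SE is the log2 fold change divided by the square root of F. Lists are described by counts, with no set test. The factors and lists were chosen with earlier results of these data known. Named genes are the 8 factors, up to 4 called genes per list with the smallest p, and a fixed set of known partners, of which some are not reported here; other genes named are cell type markers. Genes of model names were left out of the profile search (prior count 2). Tyr, Tyrp1, Dct and Fcer1a could not be placed and were left out. Exact permutation tests used 3 against 3 libraries; 0.5 was added to counts in ratios. Replicate pairs differed by more than sampling noise (chi-square per degree of freedom 13.0 to 65.6). Alternatives used DESeq2 1.42.0, limma-voom (limma 3.58.1), other moderation, scaling and filters, length and GC trends, a replicate block and leaving out each library. The fits were tested on simulated data.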

Additional observations from a re-analysis of the deposited data

How the results depend on the processing

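All 8 factors kept their direction under 19 alternative settings, and Maf, Mitf, Tfec, Bhlhe40, Bhlhe41 and Spic kept their call under all of them. Tested against a fold of 1.5, Tfeb (log2 fold change -0.60, adjusted p = 0.420) and Tfe3 (0.50, adjusted p = 0.886) were not called, the number of genes called was 5184 (2630 higher and 2554 lower) in place of 9608 (4830 and 4778), and these lists held fewer calls by construction: the list of genes tied to MAF 7 higher, the lysosomal control list 0 higher and 4 lower, the CLEAR network 4 higher and 6 lower, the MITF and TFE targets 3 higher, the SPIC list 3 higher and the other bHLH-Zip factors 4 higher. With the length trend removed, the MITF and TFE targets held 3 genes called higher, and Acp5 had a log2 fold change of -0.050 without a call, as it had none at 0.11 with the GC trend removed; with the GC trend removed, the list of Maf relatives and CNC factors held 2 genes called lower. The cause of these moves was not tested. The length trend moved Maf to -1.21, and leaving out each library in turn moved it between -1.77 and -1.65. Genes close to 0 changed sign without a call: Flcn at 0.024 (upper quartile), 0.0060 (filter of 1 CPM), 0.0014 (20 most abundant genes left out), 0.071 (length trend) and, over single left-out libraries, between -0.10 and 0.10; Per1 at 0.23 (length trend) and between -0.22 and 0.10; Usf1 between -0.13 and 0.034. Equal replicate numbers did not pair the libraries, as same-numbered libraries deviated from their group means with correlations of 0.03, 0.13 and -0.07. With the replicate block, 9723 genes were called and the log2 fold change of Maf was -1.71. No labelled batch could be analysed here, since 2 sequencer types are named without a library.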
